A study of Homo sapiens with 24 samples.

Results

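The regions described here are the UTX peaks that were called in UMUC1 cells carrying wild-type UTX and that share no base with a UTX peak of cells carrying mutant UTX. UMUC1 is an established human bladder cancer cell line, and the peaks come from chromatin immunoprecipitation sequencing (ChIP-seq). Of the 2566 UTX peaks of the wild-type line, 839 (32.7%) met this rule and are called WT-only peaks below. The remaining 1727 overlapped a peak of the mutant line by at least 1 bp and are called shared peaks. In the other direction, 1132 of the 2855 UTX peaks of the mutant line (39.6%) shared no base with a peak of the wild-type line (HEAA-only peaks).

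The 3 lines stably carried a pSIN construct with puromycin selection. In the line called EV this was the vector without an insert, in WT it encoded wild-type UTX, and in HEAA it encoded UTX carrying H1146A and E1148A. All were harvested on day 3 after plating. The sources used here do not give whether a line was a clone or a pool. UTX, MLL4, H3K4me1 and H3K27me3 had 1 peak list per line, H3K27ac had 2 numbered libraries per line, and 6 input samples brought the total to 24 samples. No expression data were part of the lists, so markers of bladder cancer cells could not be checked.

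UTX (KDM6A) removes methyl groups from lysine 27 of histone H3. It is also a subunit of the complexes built around the methyltransferases MLL3 and MLL4, which place H3K4me1 at enhancers. H3K27ac marks active enhancers and promoters, and H3K27me3 marks chromatin silenced by Polycomb complexes; the 2 marks occupy the same lysine. UTX is frequently mutated in bladder cancer, and the substituted residues lie in its catalytic domain.

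The members rest on 1 UTX list per line, so whether a UTX peak is WT-only has no replicate check, and a site without a peak is a site below the caller's threshold. Fold enrichments and q values are those given by the authors' peak caller. Read depth is unknown for all lists. The lists also differed in length between lines, and for EV, WT and HEAA in that order MLL4 had 133, 898 and 1125 peaks. For H3K27ac, library 1 held 59180, 63557 and 72700 regions in EV, WT and HEAA, whereas library 2 held 45880, 40470 and 37298 in the same order. The order of the lines by H3K27ac list length was therefore opposite in the 2 numbered sets. H3K4me1 had 138273, 165794 and 173344 regions in EV, WT and HEAA, and H3K27me3 had 231899, 199901 and 247498.

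WT-only peaks were among the weaker peaks of their list. Their median UTX fold enrichment was 4.76 (quartiles 4.08 and 5.48, highest 10.9), against 5.56 for all shared peaks. Their median −log10 q was 6.60, against 10.3, and their median width was 202 bp, against 257 bp. When the WT list was ordered by q and divided into 4 groups, the weakest group had 339 WT-only peaks among 631 (53.7%). The next groups had 278 of 652 (42.6%) and 171 of 641 (26.7%), and the strongest had 51 of 642 (7.94%). These values belong to the measurement that chose the members and were not tested. Of all 2566 WT UTX peaks, only 27 overlapped any of the 31 UTX peaks of EV. These 27 were among the 1727 shared peaks and none was WT-only, a difference that was not tested.

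The edge of the rule was narrow for few members. The 3 WT-only peaks nearest to a HEAA peak were 5, 14 and 15 bp away from it, and the 3 shared peaks with the smallest overlap shared 10, 30 and 52 bp. A HEAA peak lay within 1 kb of 33 WT-only peaks and within 0.1 kb of 7. Because overlap with a broad region is easier for a wide peak, 839 shared peaks were matched 1 to 1 to the members on width. These width-matched shared peaks had a median width of 207 bp and a median −log10 q of 8.50. A second set matched on width and q together had a median width of 210 bp and a median −log10 q of 7.33, still above the 6.60 of the members.

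MLL4, the methyltransferase that binds enhancers together with UTX, was called at fewer WT-only peaks than width-matched shared peaks in every line, with few calls in EV. In WT, 83 of 839 WT-only peaks overlapped an MLL4 peak (9.89%, 95% Wilson interval 8.05% to 12.1%). This compares with 22.6% of all WT UTX peaks and with 194 of the width-matched shared peaks (23.1%, 20.4% to 26.1%). In HEAA, 62 WT-only peaks held MLL4 (7.39%, 5.81% to 9.36%), against 25.3% of all WT UTX peaks and 251 of the matched peaks (29.9%, 26.9% to 33.1%). In EV, which carries no UTX construct, 3 WT-only peaks held MLL4 (0.358%), against 2.34% of all and 16 of the matched peaks (1.91%). An MLL4 peak of any line lay at 125 WT-only peaks (14.9%) and at 335 matched peaks (39.9%).

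The gap in MLL4 between WT-only and width-matched peaks was −13.2 percentage points in WT (95% Newcombe interval −16.7 to −9.72). For HEAA it reached −22.5 points (−26.1 to −18.9), and for EV it was −1.55 points (−2.74 to −0.546). With the reference matched on width and q, the WT gap was −9.18 points (−12.5 to −5.83) and the HEAA gap −16.9 points (−20.3 to −13.5). The EV gap was then −0.715 points, and its interval included 0 (−1.70 to 0.140). All of these intervals cover counting error over peaks only, and with 1 MLL4 list per line there is no test between lines.

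The order of WT and HEAA differed between the kinds of UTX peak. At WT-only peaks the MLL4 share was 2.50 points higher in WT than in HEAA. At width-matched shared peaks it was 6.79 points lower in WT, and at HEAA-only peaks, which held MLL4 in 66 cases in WT (5.83%) and 158 in HEAA (14.0%), it was 8.13 points lower. MLL4 was called in WT but not in HEAA at 62 WT-only peaks, in HEAA but not in WT at 41, and in both at 21. At the matched shared peaks these counts were 81, 138 and 113, and over all WT UTX peaks 237, 308 and 342. MLL4 in HEAA but not in WT was thus the most frequent of these classes at matched shared peaks. At WT-only peaks it was MLL4 in WT but not in HEAA. MLL4 in both lines ranked second at matched shared peaks and last at WT-only peaks. When the HEAA list was cut to its 898 peaks with the best q, the length of the WT list, the HEAA share fell to 5.48% at WT-only peaks, 26.0% at matched peaks and 10.1% at HEAA-only peaks. The order of the lines was the same in all 3 sets.

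**Figure D1:**
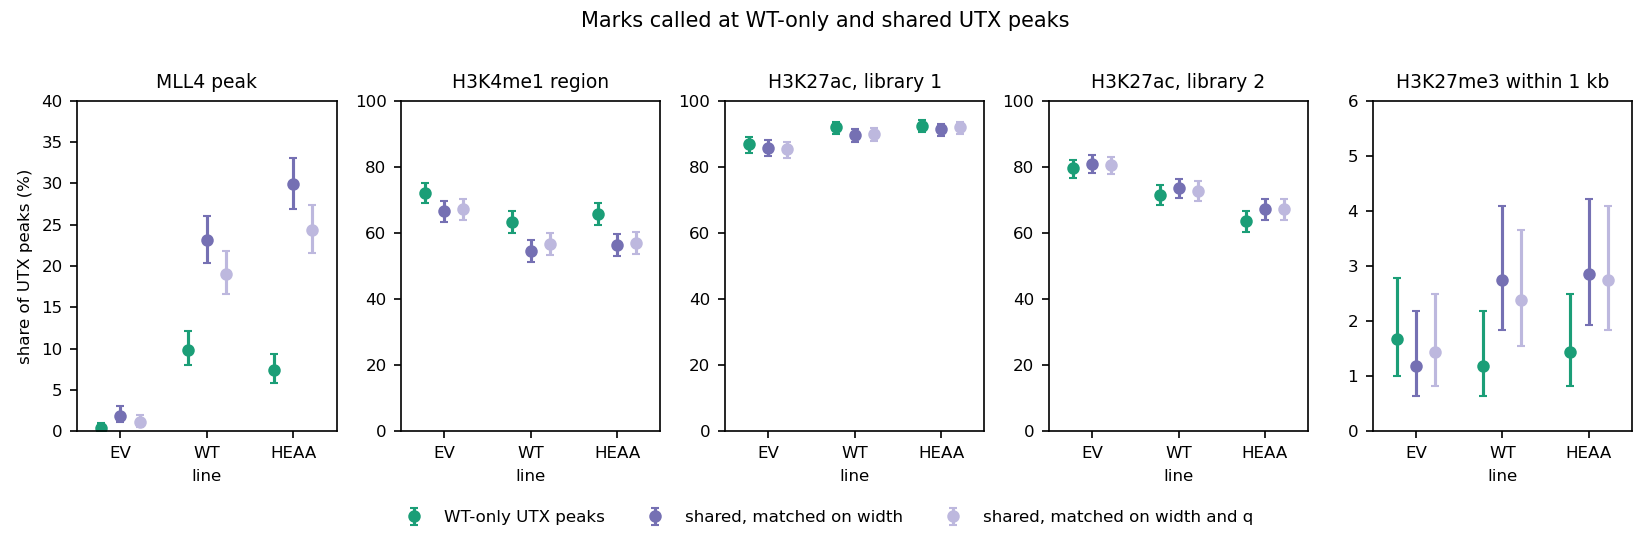
Percent of WT-only UTX peaks, and of shared UTX peaks matched on width or on width and q, that overlap MLL4, H3K4me1 or H3K27ac (libraries 1 and 2) or have H3K27me3 within 1 kb, in EV, WT and HEAA. Points are shares and bars 95% Wilson intervals. MLL4 is at 9.89% of WT-only peaks in WT and 7.39% in HEAA, below the 23.1% and 29.9% at matched shared peaks.

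MLL4 was called more often at stronger UTX peaks. From the weakest to the strongest group of the WT list, MLL4 of WT lay at 6.49%, 9.35%, 11.1% and 31.4% of the WT-only peaks, the last being 16 of 51. MLL4 of HEAA lay at 4.72%, 8.27%, 9.36% and 13.7%, the last being 7 of 51. Over all shared peaks the same 4 groups held MLL4 of WT at 11.3%, 21.1%, 24.7% and 45.3%, and MLL4 of HEAA at 18.5%, 27.8%, 28.1% and 50.4%. In each of the 4 groups the WT-only share was below the shared one in both lines, although for MLL4 of WT the 95% Wilson intervals overlapped in the weakest and the strongest group. The 83 WT-only peaks with MLL4 in WT had a median UTX fold of 5.24, against 4.64 for the 714 with MLL4 in no line.

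**Figure D2:**
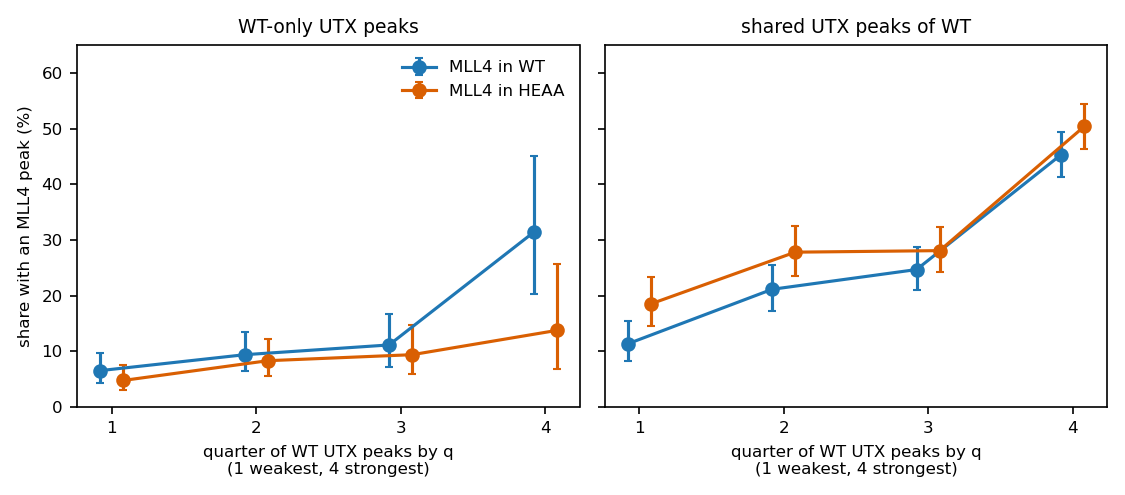
Percent of UTX peaks with an MLL4 peak in WT and in HEAA, for WT-only and all shared peaks, in 4 groups of the WT list ordered by UTX q, with 95% Wilson intervals as bars. In the strongest group, MLL4 of WT lies at 31.4% of WT-only and 45.3% of shared peaks, and MLL4 of HEAA at 13.7% and 50.4%.

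Summit distances were taken only where an MLL4 peak overlapped the UTX peak, and overlap of peaks this narrow itself keeps summits close. In WT the median distance between the UTX and the MLL4 summit was 28 bp (quartiles 10 and 53 bp), and 58 of 83 (69.9%) were within 50 bp. At the matched shared peaks the median was 26.5 bp, with 75.3% within 50 bp. MLL4 of HEAA lay at a median of 41.5 bp from the WT UTX summit at WT-only peaks, and 37 of 62 (59.7%) were within 50 bp. At matched peaks it lay at 28 bp, with 76.9% within 50 bp. The MLL4 peaks themselves had a median fold of 6.31 in WT, against 5.97 for the whole WT MLL4 list. In HEAA their median fold was 5.65, against 6.43 for the whole HEAA list and 6.89 for the MLL4 peaks at matched shared sites.

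The strongest MLL4 peaks at WT-only sites, with positions on hg19, were as follows. On chromosome 19 from 54116058 to 54116266, the UTX fold was 6.41, and MLL4 had a fold of 11.9 in WT and 8.65 in HEAA with no peak in EV. On chromosome 5 from 128285956 to 128286150, the UTX fold was 6.99 and MLL4 had a fold of 9.45 in WT alone. Chromosome 1 held 2 such sites with MLL4 in WT alone, from 201430314 to 201430523 (8.62-fold) and from 22283374 to 22283546 (8.48-fold). The fifth was on chromosome 6 from 139907420 to 139907808, with 8.48-fold MLL4 in WT alone. MLL4 was thus called in HEAA at only 1 of these 5 sites, which were chosen by their WT value.

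Ranked by MLL4 of HEAA, the first site lay on chromosome 8 from 131510055 to 131510280, with a fold of 8.99 in HEAA and 6.62 in WT. Chromosome 16 from 1739199 to 1739455 followed with 8.86 in HEAA and 5.52 in WT. The chromosome 19 site above came next, and then chromosome 7 from 44658394 to 44658605 with 8.56 in HEAA and 7.15 in WT. The fifth, on chromosome 2 from 178648803 to 178649039, had 8.43 in HEAA and no MLL4 peak in WT, although its UTX peak of 9.41-fold was called in WT alone. UTX and MLL4 calls therefore went opposite ways between the lines at this site.

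The 3 WT-only peaks with MLL4 in EV, named after their values were seen, held none in WT. They lay on chromosome 2 from 214081250 to 214081542 (MLL4 fold 5.97 in EV), on chromosome 3 from 150469751 to 150469932 (6.05 in EV and 4.37 in HEAA) and on chromosome 4 from 85503528 to 85503709 (9.62 in EV and 4.71 in HEAA).

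Most WT-only peaks lay in H3K27ac regions in every line, the empty-vector line included. Library 1 had a region at 728 of 839 in EV (86.8%), at 772 in WT (92.0%) and at 776 in HEAA (92.5%). The corresponding shares of all WT UTX peaks were 87.1%, 91.4% and 92.5%. Library 2 had 667 for EV (79.5%), 600 for WT (71.5%) and 533 for HEAA (63.5%), against 82.4%, 75.6% and 69.9% of all WT UTX peaks. Width-matched shared peaks held 85.8%, 89.6% and 91.3% in library 1 and 80.9%, 73.5% and 67.2% in library 2. By overlap, the 6 intervals of the gap between WT-only and width-matched peaks all included 0. Counted within 1 kb, the gap of HEAA library 2 was −3.46 points (−6.74 to −0.180), and the other 5 intervals included 0. Against all shared peaks, which were wider and stronger, the library 2 gaps by overlap were −4.29 points for EV (−7.60 to −1.12), −6.02 for WT (−9.70 to −2.44) and −9.43 for HEAA (−13.3 to −5.59). The library 1 intervals against all shared peaks included 0.

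The mean acetylated share of EV was 83.1% ± 5.14, that of WT 81.8% ± 14.5 and that of HEAA 78.0% ± 20.5 (SD, n = 2 libraries each). WT exceeded HEAA by 3.75 points on average, by −0.477 in library 1 and 7.99 in library 2, and the exact two-sided permutation p was 1. The smallest p that 2 libraries against 2 can give is 0.333. WT minus EV was −1.37 points (5.24 in library 1 and −7.99 in library 2, exact permutation p = 1). HEAA minus EV was −5.13 points (5.72 and −16.0, exact permutation p = 1). The direction against EV was thus opposite in the 2 libraries, as was the order of the list lengths.

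The difference between WT and HEAA was 1.43 points more positive at WT-only peaks than at width-matched shared peaks, with 1.19 in library 1 and 1.67 in library 2. The exact permutation p for this comparison over the 4 libraries was 0.667. With libraries compared within their number it was 0.5, the smallest that 2 pairs can give, so this design could not separate the difference from the spread between libraries. Cut to their 37298 best regions each, the 6 libraries covered 85.0%, 88.9% and 89.2% of WT-only peaks in library 1 and 78.1%, 71.2% and 63.5% in library 2 (EV, WT, HEAA). The 2 numbered sets therefore kept their opposite orders at equal list length.

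Acetylation was a shared property of the lines at most of these sites. All 6 libraries had a region at 498 WT-only peaks (59.4%), 303 had it in 1 to 5 libraries, and 38 (4.53%) in none. Of the matched shared peaks, 521 (62.1%) were acetylated in all 6 and 54 (6.44%) in none. The regions that held WT-only peaks were large ones: in WT library 1 they had a median width of 3.46 kb and a median fold of 8.02, against 1.07 kb and 4.04 over the whole list. Those that held matched shared peaks had 3.65 kb and 8.28, so large regions were not particular to WT-only peaks. Any site overlaps a wide region more easily, which favours wide regions in both sets. The 772 acetylated members of WT library 1 lay in 763 different regions, 753 of them with a single member. A shared peak lay in the same region for 61 of the 772 (7.90%). The 752 acetylated matched shared peaks were spread alike, in 732 regions, 712 of them with a single one. Another shared peak lay in the same region for 68 of the 752 (9.04%).

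H3K4me1, the mark placed by MLL3 and MLL4, lay at more WT-only than width-matched peaks in all 3 lines. In EV it overlapped 605 WT-only peaks (72.1%, 95% Wilson interval 69.0% to 75.0%). The WT list overlapped 531 (63.3%, 60.0% to 66.5%) and the HEAA list 552 (65.8%, 62.5% to 68.9%). The shares of all WT UTX peaks were 70.7%, 60.7% and 62.0%. Width-matched shared peaks had 66.5%, 54.6% and 56.5%, and HEAA-only peaks 75.0%, 68.3% and 70.0%. For EV the gap to the width-matched peaks was 5.60 points (95% Newcombe interval 1.19 to 9.99), for WT 8.70 (3.99 to 13.4) and for HEAA 9.30 (4.63 to 13.9). With q matched as well, it was 5.01 (0.604 to 9.38), 6.56 (1.87 to 11.2) and 8.82 points (4.16 to 13.4). Against all shared peaks it was 2.05 (−1.73 to 5.71), 3.88 (−0.151 to 7.84) and 5.63 points (1.64 to 9.53), and the EV and WT intervals included 0. By overlap, WT-only peaks thus had less MLL4 but more H3K4me1 than shared peaks of their width. Their H3K4me1 coverage at 1 and 2 kb from the summit was lower, as given below.

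Between the lines, H3K4me1 at WT-only peaks was highest in EV, although the EV list was the shortest. The EV list had the largest share of regions with a −log10 q of at least 5, which was 17.4%, against 12.2% for WT and 13.3% for HEAA. The part of this in the difference was not tested. From EV to WT the share differed by −8.82 points and from EV to HEAA by −6.32 points, against −11.9 and −10.0 at matched shared peaks. H3K4me1 was called in EV but not in WT at 138 WT-only peaks, and in WT but not in EV at 64. It was called in EV but not in HEAA at 113, and in HEAA but not in EV at 60. Over all 2566 WT UTX peaks, the counts for EV and WT were 428 and 170. Those for EV and HEAA were 400 and 176, so the excess in EV was not particular to WT-only peaks. All lines had H3K4me1 at 428 WT-only peaks (51.0%) and no line at 146 (17.4%). At the matched shared peaks these were 348 (41.5%) and 197 (23.5%), and over all WT UTX peaks 47.6% and 19.4%. With 1 list per line these differences have no replicate check.

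The missing calls were local to the peak. Within 1 kb, H3K4me1 was found at 99.8%, 99.9% and 99.8% of WT-only peaks in EV, WT and HEAA. Of all WT UTX peaks, 99.7%, 99.7% and 99.8% had it. At the WT-only summits, coverage was 64.6%, 54.1% and 59.2%, and at 0.5 kb, as the mean of both sides, it was 91.5%, 89.8% and 90.7%. At 1 kb it was 81.2%, 78.8% and 79.5%, against 85.5%, 83.1% and 84.3% for matched shared peaks. At 2 kb it was 47.0%, 47.7% and 48.0%, against 52.9%, 52.6% and 53.4%. At the summits the order was the other way, with 56.9%, 46.7% and 47.9% for matched shared peaks. H3K4me1 therefore flanked the summits in every line, with the lowest coverage at the summit in WT for both sets. H3K27ac of library 1 covered 84.3%, 89.9% and 90.6% of the WT-only summits, and library 2 covered 75.8%, 66.2% and 58.2%. Of the matched shared summits, library 1 covered 81.4%, 88.1% and 89.3%, and library 2 covered 75.7%, 68.1% and 60.4%.

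**Figure D3:**
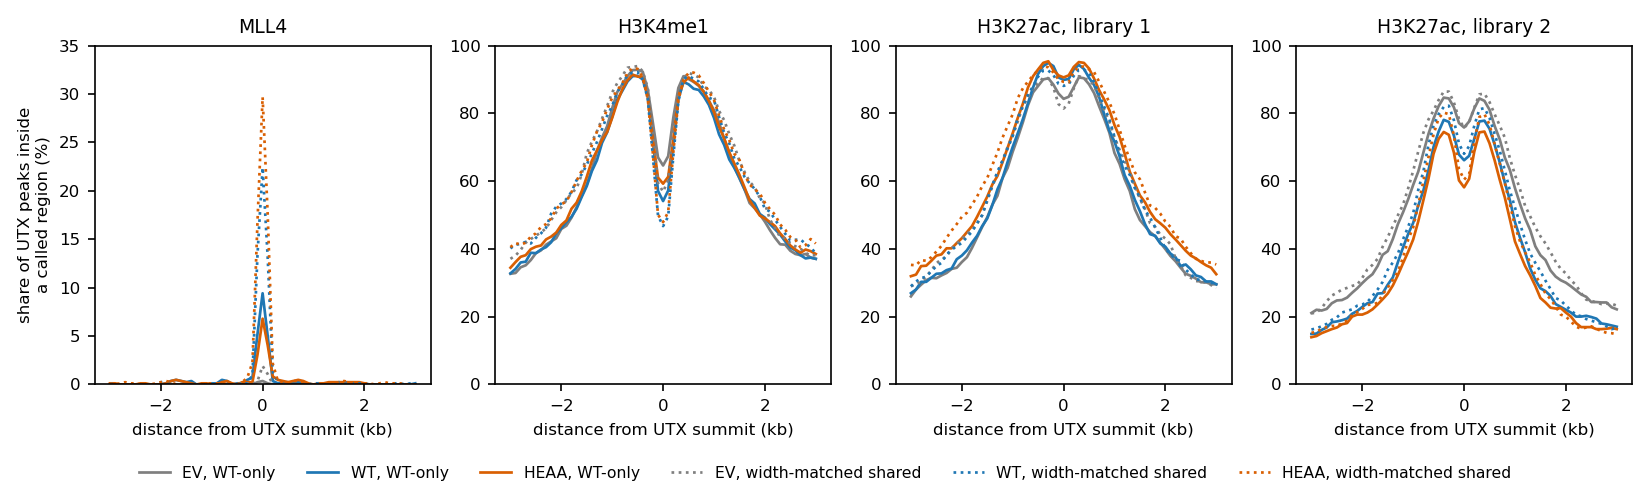
Percent of WT-only and width-matched shared UTX peaks inside an MLL4 peak or an H3K4me1 or H3K27ac region at each distance in kb from the UTX summit, in EV, WT and HEAA. H3K4me1 falls from its mean level at 0.5 kb on both sides (91.5%, 89.8% and 90.7% for EV, WT and HEAA) to 64.6%, 54.1% and 59.2% at the WT-only summits.

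H3K27me3, the mark that UTX removes, was called at almost none of these sites in any line. The H3K27me3 regions were weak calls, with a −log10 q of at least 5 for 0.701%, 0.148% and 0.519% of the EV, WT and HEAA lists. It overlapped 0 of 839 WT-only peaks in EV, which at a limit of 3 counts allows a share of up to 0.358%, and 1 peak each in WT and HEAA. Of all WT UTX peaks, 0.156%, 0.117% and 0.273% overlapped such a region in EV, WT and HEAA. The EV list had a region within 1 kb of 14 WT-only peaks (1.67%), the WT list of 10 (1.19%) and the HEAA list of 12 (1.43%), against 1.71%, 2.42% and 2.49% of all WT UTX peaks. The matched shared peaks had 10, 23 and 24. For EV the gap to them was 0.477 points (−0.718 to 1.71), for WT −1.55 (−2.99 to −0.208) and for HEAA −1.43 (−2.92 to −0.0248). With q matched too, the intervals in WT (−2.57 to 0.102) and HEAA (−2.78 to 0.0792) included 0.

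Over the 3 lines, 18 WT-only peaks had H3K27me3 within 1 kb. At 6 of them the mark was called in all lines, at 7 it was called in EV but not in WT, and at 3 in WT but not in EV. None of the 18 held MLL4 in any line, against 14.9% of all WT-only peaks. H3K27ac was absent from all 6 libraries at 11 of the 18, against 4.53% of all WT-only peaks. The member that itself overlapped H3K27me3 lay on chromosome 20 from 21748676 to 21748853, with a mark fold of 3.25 in WT and 2.70 in HEAA. It had H3K4me1 in all lines, no H3K27ac and no MLL4.

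The 38 WT-only peaks without H3K27ac in any library were described by their other marks. Their median UTX fold was 5.53, above the 4.58 of the 498 members acetylated in all libraries. H3K4me1 was called in all lines at 26 of them, against 51.0% of all WT-only peaks, and MLL4 in any line at 1, against 14.9%. H3K27me3 lay within 1 kb of 8, 6 and 9 of the 38 for EV, WT and HEAA, against 14, 10 and 12 of all 839. No member acetylated in all 6 libraries had H3K27me3 within 1 kb in any line. No more than 3 WT-only peaks had neither H3K27ac in any library nor H3K4me1 in any line.

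Among the 20 WT-only peaks with the highest UTX fold, MLL4 was called at 7 in WT, 3 in HEAA and 0 in EV. For H3K4me1 the counts were 17, 16 and 18 (EV, WT, HEAA). All 6 H3K27ac libraries had a region at 13, and none of them at 3. Over all WT-only peaks, MLL4 lay at 9.89% in WT, 7.39% in HEAA and 0.358% in EV. H3K4me1 lay at 72.1%, 63.3% and 65.8% of them (EV, WT, HEAA). H3K27ac was called in all 6 libraries at 59.4% and in none at 4.53%. The strongest peak, on chromosome 1 from 8197820 to 8198024, had a UTX fold of 10.9 and no MLL4. Its H3K27ac fold was 5.70, 5.52 and 5.11 in library 1 and 7.58, 5.06 and 4.91 in library 2 (EV, WT, HEAA), and H3K4me1 was called in HEAA alone (3.40). This site was therefore acetylated whether or not UTX was called there.

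The second, on chromosome 9 from 126817108 to 126817357, had a UTX fold of 9.60 but neither MLL4 nor H3K27ac in any library. Its H3K4me1 fold was 3.48, 3.63 and 4.17 (EV, WT, HEAA), and H3K27me3 lay within 1 kb in WT and HEAA but not in EV. The sites on chromosome 6 from 46029949 to 46030194 (UTX fold 7.84) and on chromosome 12 from 16485025 to 16485236 (7.65) likewise had H3K4me1 in all lines and no H3K27ac or MLL4. H3K27me3 lay within 1 kb of the chromosome 6 site in HEAA alone and of the chromosome 12 site in no line.

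Sites with MLL4 in WT alone included chromosome 1 from 156093014 to 156093380, with a UTX fold of 8.93 and an MLL4 fold of 6.90. Its H3K27ac fold was 11.6, 15.6 and 15.3 in library 1 and 14.4, 13.6 and 11.8 in library 2 (EV, WT, HEAA). This was the most strongly acetylated of the 20 in WT library 1, and its nearest HEAA UTX peak was 3.68 kb away. On chromosome 9 from 19208766 to 19208998, with a UTX fold of 8.81 and an MLL4 fold of 6.78 in WT, H3K4me1 was called in no line. On chromosome 13 from 25425675 to 25425994 the UTX fold was 8.61 and MLL4 of WT 6.31, and H3K4me1 was called in EV (3.53) and HEAA (2.96) but not in WT. Chromosome 16 from 88831444 to 88831722 had MLL4 of WT at 7.58, and chromosome 9 from 2229377 to 2229600 had it at 7.85. MLL4 in both lines was found on chromosome 8, at the site given above, and on chromosome 1 from 202805740 to 202806031 (5.51 in WT and 7.65 in HEAA).

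**Figure D4:**
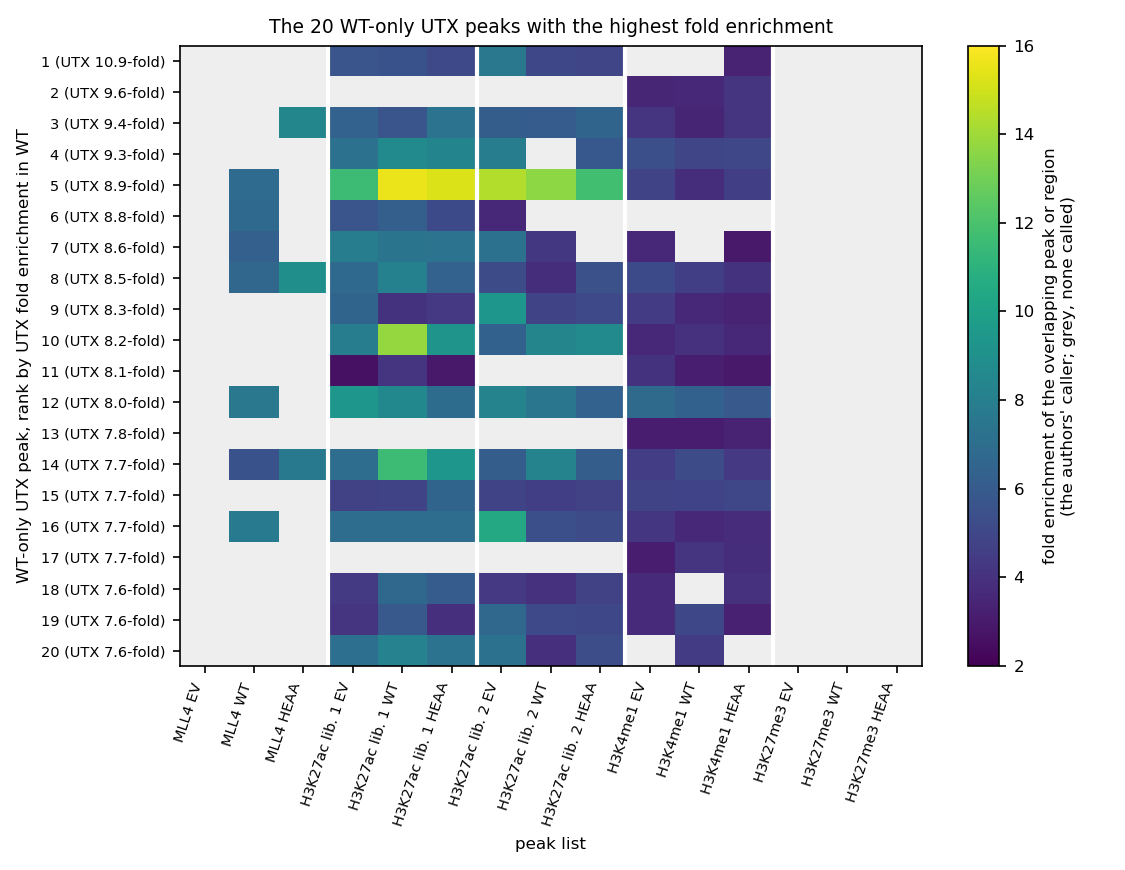
Fold enrichment of the overlapping peak or region in every MLL4, H3K27ac, H3K4me1 and H3K27me3 list at the 20 WT-only peaks with the highest UTX fold; grey cells have no call. MLL4 is called at 7 in WT, 3 in HEAA and 0 in EV, and 3 sites lack H3K27ac in all 6 libraries.

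WT-only peaks were mostly isolated, as were the other sets of UTX peaks. Another UTX peak of WT lay within 10 kb of 122 (14.5%), and the median gap to the nearest was 166 kb. The matched shared peaks had 154 (18.4%) and a median of 107 kb, and all shared peaks 314 (18.2%) and 101 kb. Another UTX peak of HEAA lay within 10 kb of 182 HEAA-only peaks (16.1%), with a median gap of 115 kb. WT-only peaks made up from 23.8% of the WT UTX peaks (chromosome 15) to 46.3% (chromosome 13, 31 of 67). On 20 of 23 chromosomes the WT-only share of the WT list was below the HEAA-only share of the HEAA list. The exceptions were chromosome 13 (46.3% against 41.9%), chromosome 18 (18 of 46, 39.1%, against 5 of 33, 15.2%) and chromosome 19 (36 of 91, 39.6%, against 23 of 78, 29.5%). Without chromosome 18, MLL4 lay at 9.99% of WT-only peaks in WT and 7.31% in HEAA. Its 18 WT-only peaks were too few to reverse an order of 83 against 62 peaks with MLL4.

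**Figure D5:**
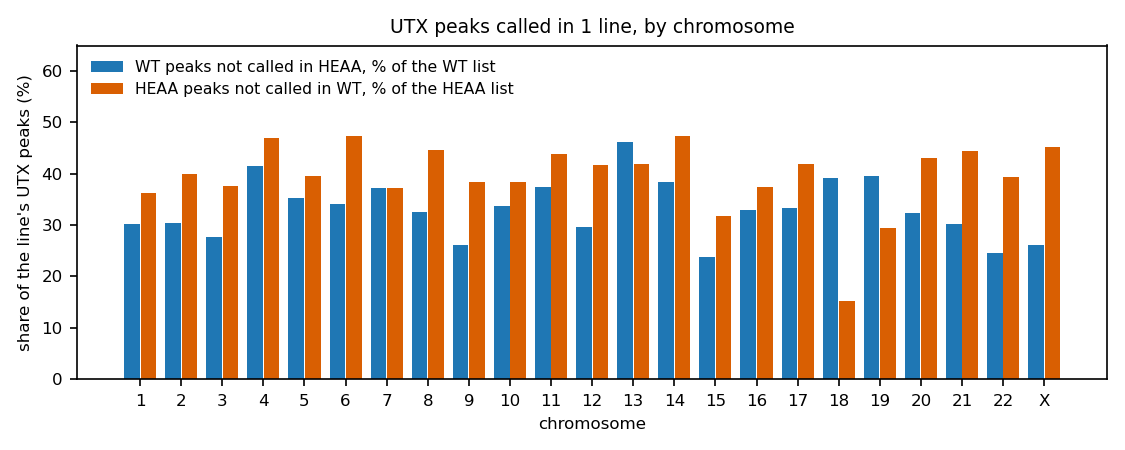
WT-only peaks as a percent of the WT UTX list and HEAA-only peaks as a percent of the HEAA UTX list on each chromosome. The WT-only share is the higher of the pair on chromosomes 13, 18 and 19, with 39.1% against 15.2% on chromosome 18.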

How the data were processed

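Per the labels' protocols, chromatin for UTX and MLL4 was cut with micrococcal nuclease before sonication, and chromatin for histone marks was sonicated. The submitters' processing notes name MACS2 and the builds hg19 and GRCh37. The sources used here do not give the aligner, the treatment of duplicates or versions. UTX and MLL4 files hold narrow peaks and histone files broad regions. UTX peaks are named as merged, without a statement of what was merged. The deposited fold enrichment of each peak is a linear ratio over its background. Each peak also has a deposited −log10 p-value and −log10 q-value, and all calls had q at or below 0.05 (narrow) or 0.1 (broad). These authors' values served to rank, filter and describe peaks of the same list. Depth is unknown, and lists lengthen with it.

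Intervals were compared with custom code in Python 3.11.15 (NumPy 2.4.6, pandas 2.3.3, SciPy 1.17.1, matplotlib 3.10.9). A mark was called at a peak where at least 1 bp overlapped, and for H3K27me3 also within 1 kb. Shared peaks were matched without replacement to the nearest width, widest member first. Shares have 95% Wilson and gaps 95% Newcombe intervals, which cover counting error only, since peaks are not replicates. For H3K27ac, the libraries' shares entered exact permutation tests, all two-sided. The labels do not tie the numbered libraries to separate cultures, so their p-values reflect the spread among these libraries alone, and this may be technical.

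Named regions are the 20 members with the highest UTX fold, the 5 with the highest overlapping MLL4 fold in WT and in HEAA, the 3 nearest each side of the rule and members overlapping H3K27me3. The members, reference sets and rules were chosen with earlier results of these data known. The overlap and matching code was tested on simulated data. An hg19 sequence or annotation was not used here, so regions were not assigned to genes and planned gene lists were not run. Alternatives covered the UTX and mark thresholds, the overlap rule, the reference, list length, chromosome 18 and single libraries.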

Additional observations from a re-analysis of the deposited data

Results flagged for a closer look

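The share of WT-only peaks with H3K27ac moved in opposite directions against EV in the 2 numbered sets of libraries. WT minus EV was 5.24 percentage points in library 1 and −7.99 in library 2. HEAA minus EV was 5.72 and −16.0 points. Over all WT UTX peaks, WT minus EV was 4.29 and −6.82 points, and HEAA minus EV was 5.34 and −12.5 points. The opposite directions were therefore not particular to WT-only peaks. The H3K27ac lists lengthened from EV to HEAA in library 1 and shortened in library 2. The difference between the 2 numbered sets of libraries was not tested.

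MLL4 stood in a different order in WT and HEAA at different kinds of UTX peak. WT minus HEAA was 2.50 points at WT-only peaks, −6.79 at width-matched shared peaks and −8.13 at HEAA-only peaks. This difference was not tested, since MLL4 had 1 list per line.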

How the results depend on the processing

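Among the recomputed values, 7 changed sign. A further 28, each with no test, fell outside the 95% interval of the reported value. The number of WT-only peaks ranged from 588 (UTX −log10 q of at least 5) to 936 (HEAA UTX list cut to the length of the WT list). With that UTX threshold, MLL4 in HEAA lay at 9.86% of members. When a mark had to cover the summit, H3K4me1 was at 64.6%, 54.1% and 59.2% (EV, WT, HEAA) and H3K27me3 at 0%, 0% and 0%. Counted within 1 kb, H3K4me1 was at 99.8%, 99.9% and 99.8%, and H3K27me3 by overlap was at 0%, 0.119% and 0.119%. With a mark −log10 q of at least 5, MLL4 was at 7.03% in WT and 4.77% in HEAA, H3K4me1 at 57.2%, 41.8% and 46.6%, and H3K27me3 at 0.119%, 0% and 0%. With equal-length lists, chosen after seeing the data along with the shortened HEAA UTX list and the removal of chromosome 18, MLL4 in HEAA was at 5.48%. The MLL4 gap was −9.18 points in WT and −16.9 in HEAA with q matched too. Against all shared peaks it was −18.8, −26.7 and −2.94 points in WT, HEAA and EV, and the H3K4me1 gaps in EV and WT were 2.05 and 3.88.

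Leaving out single H3K27ac libraries moved WT minus HEAA from −10.7 to 18.2 points, WT minus EV from −11.6 to 8.88, HEAA minus EV from −19.6 to 9.36, and the difference between member and matched peaks from −1.01 to 3.87. Each of these 4 results changed sign for some library left out: WT library 1 or HEAA library 2 for the first and the last, EV library 1 or WT library 2 for the second, and HEAA library 2 for the third. The labels do not say whether libraries with the same number in different lines share anything else. Their deviations correlated at 0.311 between EV and WT, 0.265 between EV and HEAA and 0.545 between WT and HEAA. Only 2 numbers were available per line, so these correlations were not taken over libraries. They do not test whether libraries with the same number were paired. With the replicate number as a block, the values stayed at 3.75, −1.37, −5.13 and 1.43 points, with exact permutation p of 1, 1, 1 and 0.5, where 0.5 is the smallest possible. Unknown depth limits every share, because a missing call cannot be told from a weak signal.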
